A study of Arabidopsis thaliana with 12 samples.

Results

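Roots of Or-1, an NH4+-tolerant ecotype of Arabidopsis thaliana, were compared with roots of Rak-2, an NH4+-sensitive ecotype, after both had been fed NH4+. The comparison uses all 6 root libraries from NH4+-fed plants, 3 of Or-1 and 3 of Rak-2, out of 12 in the series, and every gene that passed a filter on low counts, 19327 of 26568 listed. The Or-1 NH4+ plants were natural accession plants kept in NO3- solution for 5 d and then given (NH4)2SO4 at 1 mM during 1 further d. The Rak-2 NH4+ plants had the same history. The study's methods add 3 d without nitrogen between these steps, which the labels leave out. The other 6 libraries, 3 of Or-1 and 3 of Rak-2 given 1 mM Ca(NO3)2 in place of (NH4)2SO4, entered the fit and serve here only to show what the ecotypes differ in without NH4+. The labels number the ecotypes and call one tolerant and the other sensitive, and the names Or-1 and Rak-2 are the study's. Each ecotype is 1 accession, so a difference between them belongs to these accessions and cannot be told apart from a difference of tolerance. The study describes its replicates as biological without saying whether they came from separate pots, so p-values measure the spread between these libraries.

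Roots take up NH4+ through AMT transporters and join it to glutamate through glutamine synthetase, while glutamate dehydrogenase links ammonium to carbon supply. Plants given NH4+ as their only nitrogen often grow poorly, and accessions of Arabidopsis vary in how well they bear it. Natural accessions also differ in gene content, most of all in disease resistance receptors and in enzymes of specialised metabolism, so a comparison of ecotypes shows standing differences beside those that appear with a treatment.

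The 6 libraries held 18302973 to 20565302 counts each. Correlations of log CPM (counts scaled to a fixed library total) were 0.966 to 0.980 among Or-1 libraries, 0.979 to 0.989 among Rak-2 libraries and 0.874 to 0.900 between the ecotypes. Over 20 marker genes of root cell types the summed level was 2653 to 3903 normalized CPM in Or-1, against 2840 to 2902 normalized CPM in Rak-2, and 1 of the 20 was higher and 1 lower in Or-1. Of the fits without 1 library, the higher one kept its call only in that without Or-1 replicate 3. RNA of 11 marker genes of shoots and photosynthesis summed to 245, 10.05 and 350 normalized CPM in Or-1, against 439, 259 and 1136 in Rak-2. None of these 11 was called, with 0 at an unadjusted p under 0.05 by edgeR and 0 called by DESeq2, although all 11 had a negative log2 fold change (median -1.71). In the fit blocked on replicate number 1 of the 11 was lower, and with that block and only the 6 NH4+ libraries 5 were. Without Or-1 replicate 1 or Rak-2 replicate 2 it was 1. Under NO3- the 11 summed to 552, 179 and 808 normalized CPM in Or-1, against 19.1, 102 and 466 in Rak-2. Their median log2 fold change there was 1.23, and 10 of the 11 were negative under NH4+ but positive under NO3-. The difference between nitrogen sources was called for 0 of them, with 4 at an unadjusted p under 0.05 by edgeR. The part of shoot RNA in the results, and in differences between nitrogen sources, was not tested. Here and below, levels are CPM scaled with TMM factors, which allow a gene to be compared between libraries but not with another gene, since they are not divided by gene length. In root tissue, fewer cells of a type and less RNA per cell cannot be told apart.

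Under NH4+, 2359 of 19327 genes (12.2%) differed between Or-1 and Rak-2, of which 1266 (6.55% of the genes tested) were higher in Or-1 and 1093 (5.66%) lower. Which direction held more genes depended on the fit, with 1131 higher and 1242 lower under upper-quartile scaling, 1128 and 1203 under library size scaling alone (median over all genes -0.09 and -0.08), and 1350 and 1361 with the replicate block. A gene was called when its false discovery rate (FDR, the Benjamini-Hochberg adjusted p over all genes tested) was under 0.05 and its absolute log2 fold change, Or-1 over Rak-2, was over 1 in edgeR's quasi-likelihood test. Of the genes called higher, 558 had a log2 fold change over 2 and 200 over 4. Of those called lower, 522 were below -2 and 228 below -4. All 3 Or-1 libraries lay above all 3 Rak-2 libraries for 1254 of the 1266 higher genes, and below them for 1089 of the 1093 lower genes. That separation was common among all genes tested, since the groups did not overlap for 9434 of them (48.8%). The median log2 fold change over all genes was 0.00, and 9621 of 19327 were positive. For any gene list here, 6.55% higher and 5.66% lower are the shares over all genes.

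Under NO3-, 1670 genes (8.64%) differed between the same ecotypes. Of the genes called higher in Or-1 under NH4+, 555 (43.8%) were also called higher under NO3-, which is 66.0% of the 841 genes called higher there (4.35% of the genes tested). Of the genes called lower, 589 (53.9%) were also called lower under NO3-, which is 71.0% of 829 (4.29%). Groups did not overlap under NO3- for 26.2% of all genes. The difference of the ecotype contrast between the nitrogen sources was called for 237 genes (1.23%), 208 of them with a larger Or-1 over Rak-2 ratio under NH4+ and 29 with a smaller one, against 3483 at an unadjusted p under 0.05. Under library size scaling alone that split was 162 and 53. This count rests on single libraries. It was 613 without the third Rak-2 NO3- library and 69 to 308 without any 1 of the other 11, among them 69, 80 and 119 without Rak-2 NH4+ replicates 1, 2 and 3, 73 and 127 without Or-1 NH4+ replicates 2 and 3, 146 and 155 without Rak-2 NO3- replicates 1 and 2, and 129 without Or-1 NO3- replicate 3. In the fit blocked on replicate number it was 398. Of the 1266 genes called higher under NH4+, 146 were among the 208, and of the 1093 called lower, 16 were among the 29.

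**Figure D1:**
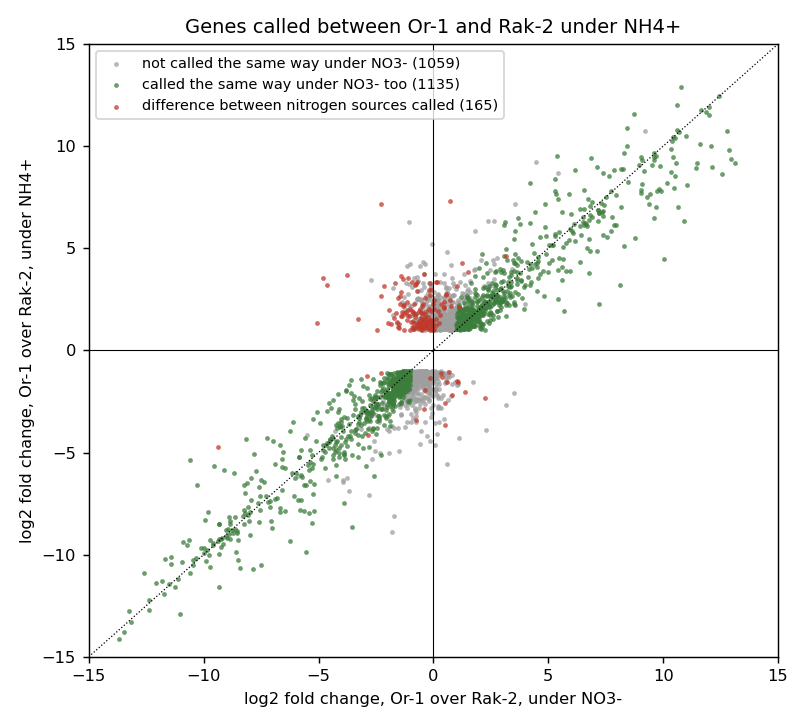
Each point is 1 of the 2359 genes called between Or-1 and Rak-2 under NH4+, plotted by its log2 fold change under NO3- (x axis) and under NH4+ (y axis). Green points (1135) were called the same way in both nitrogen sources without a called difference, red points (165) had a called difference between them, and grey points (1059) are the rest. Genes with the largest fold changes lie near the dotted line of equal change, and most red points lie near 0 or left of it on the x axis and above 1 on the y axis.

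Among the largest ecotype differences were genes read in one ecotype and at the detection limit in the other. Of the genes called higher, 168 had at most 3 counts in each Rak-2 NH4+ library, and of those called lower, 191 had at most 3 counts in each Or-1 NH4+ library. Of these, 135 and 154 were at the limit under NO3- too. Genes that the authors assembled anew from the reads made up 50 and 47. Counts alone cannot tell a gene that is silent from one that is deleted, or too diverged from the reference to be counted.

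AT5G45095, which encodes an uncharacterized protein, had 108, 96.4 and 88.0 normalized CPM in Or-1, against 0, 0.0523 and 0 in Rak-2, at least 622-fold higher against the floor of 3 counts per library. PP2-A8, a phloem lectin gene nearby, had 105, 133 and 149.6 normalized CPM in Or-1, against 0, 0 and 0.196 in Rak-2. The next lectin gene, PP2-A6, had 78.4, 103 and 111 normalized CPM in Or-1, against 0, 0 and 0.539 in Rak-2. These genes lie in a run of 5 neighbouring genes called higher, from the disease resistance gene AT5G45060 to AT5G45095. All 5 were also called higher under NO3-. The only other run of 5 among the called genes, AT4G19460 to AT4G19520 on chromosome 4, holds 3 disease resistance genes and VPS54. In it, AT4G19500 (TIR type resistance gene) had 23.4, 21.6 and 30.3 normalized CPM in Or-1, against 0, 0 and 0 in Rak-2, at least 159.9-fold higher.

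WAKL2, a wall associated kinase-like gene, had 21.5, 23.4 and 21.9 normalized CPM in Or-1, against 0, 0 and 0 in Rak-2, at least 142-fold higher. AT1G60110, of the mannose-binding lectin family, was at least 119-fold higher in Or-1, AT3G18535 (tubulin-tyrosine ligase) at least 126-fold, AT4G15245 (uncharacterized) at least 135-fold and AT1G12340 (cornichon family) at least 77.7-fold. All of these were called higher under NO3- as well.

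In the other direction, AT5G45490, an NTPase gene with a P-loop, had 0.0486, 0 and 0 normalized CPM in Or-1, against 152, 163 and 148 in Rak-2, at least 1003-fold lower in Or-1. AT1G51270 (vesicle-associated protein 1-4) had 0, 0 and 0 normalized CPM in Or-1, against 112, 137 and 100.4 in Rak-2, at least 758-fold lower, and AT5G23830, of the MD-2-related lipid recognition family, was at least 585-fold lower. No Or-1 library had a count for these last 2 genes, and neither did any Or-1 library under NO3-. AT1G60750, an oxidoreductase gene, was at least 322-fold lower, AT5G49645 (uncharacterized) 292-fold, AT1G65985 (DUF247 transmembrane protein) 197-fold, AT5G15360 (uncharacterized) 127-fold and AT1G61480, an S-locus lectin kinase gene, 127-fold, each as a lower bound. Among all 18846 pairs of neighbouring tested genes, the next gene was called in the same direction for 13.7% of 2198 called genes and in the opposite direction for 5.96%, beside the 6.55% and 5.66% called in each direction over all genes.

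Among ammonium transporter genes, 2 of the 5 tested were higher in Or-1, where 6.55% of all genes were. The study named both from these same libraries, so the list is no independent evidence of its direction. AMT1;2, a transporter of the inner root layers, had 239, 239 and 254 normalized CPM in Or-1, against 101, 125 and 92.5 in Rak-2, a log2 fold change of 1.2 ± 0.21 (SE; edgeR adjusted p = 0.0021). AMT2, which is less related to the AMT1 group, had 79.98, 115 and 153 normalized CPM in Or-1, against 46.7, 54.9 and 57.7 in Rak-2, a log2 fold change of 1.13 ± 0.21 (edgeR adjusted p = 0.0028), and was not called without Or-1 replicate 3 (log2 fold change 0.88). The groups did not overlap for either gene. The difference stood under NO3- too for AMT1;2 (1.32 on the log2 scale, edgeR adjusted p = 0.00146). AMT1;1 averaged 156 ± 17.3 normalized CPM in Or-1 and 148 ± 13.2 in Rak-2 (SD, n = 3 each), with groups that overlapped, and AMT1;3 averaged 162 ± 17.8 in Or-1 and 239.6 ± 42.3 in Rak-2 (log2 fold change -0.57, edgeR adjusted p = 0.133).

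Of 13 tested genes of ammonium assimilation, 2 were lower in Or-1, where 5.66% of all genes were. The rest were not called (median log2 fold change 0.03, against 0.00 over all genes). This list too holds genes the study picked on these libraries (GLN1;3, GLN1;4, GLN2 and the 3 GDH genes). GDH3, one of the glutamate dehydrogenase genes, had 8.65, 11.5 and 42.4 normalized CPM in Or-1, against 84.0, 99.9 and 84.1 in Rak-2 (log2 fold change -2.10 ± 0.55, edgeR adjusted p = 0.0187). GLN1;4, a cytosolic glutamine synthetase gene, had 50.5, 36.9 and 40.3 normalized CPM in Or-1, against 101, 128 and 115 in Rak-2 (log2 fold change -1.43 ± 0.37, edgeR adjusted p = 0.0174). With 1 library left out the call was lost for GDH3 without Or-1 replicate 1 or 2 or Rak-2 replicate 2 (log2 fold change -1.99 to -1.73), and GLN1;4 without Or-1 replicate 2 or 3 or Rak-2 replicate 2 (log2 fold change -1.40 to -1.33). Without Or-1 replicate 3, GDH3 kept its call with a log2 fold change of -3.14.

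GDH1 and GDH2, the other glutamate dehydrogenase genes, lay above Rak-2 in every Or-1 library but under the threshold of 1. GDH2 had 457, 513 and 382 normalized CPM in Or-1, against 265, 198 and 226 in Rak-2 (log2 fold change 0.97 ± 0.16, edgeR adjusted p = 0.00144) and GDH1 had 194, 198 and 131 normalized CPM in Or-1, against 111, 87.6 and 109.8 in Rak-2 (log2 fold change 0.76 ± 0.21, edgeR adjusted p = 0.0211). Under NO3- the GDH2 ratio was -0.30 on the log2 scale, and its difference between the nitrogen sources of 1.27 was called (edgeR adjusted p = 0.0257). Without Rak-2 replicate 1 or Or-1 replicate 3, GDH2 passed the fold threshold and was called (1.1 and 1.08), as it was with no filter on low counts. The GLN1;3 and GLN2 genes had log2 fold changes of -0.39 and 0.16 (edgeR adjusted p = 0.171 and 0.705).

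Both nitrate reductase genes, which carry out the first step of nitrate assimilation, were higher in Or-1 under NH4+. NIA2 had 968, 1681 and 1915 normalized CPM in Or-1, against 209, 263 and 298 in Rak-2, and NIA1 had 666, 762 and 502 normalized CPM in Or-1, against 154, 147 and 198 in Rak-2. For both genes the lowest Or-1 library was above the highest Rak-2 library. Their log2 fold changes were 2.57 ± 0.42 for NIA2 and 1.95 ± 0.33 for NIA1 (edgeR adjusted p = 0.00116 and 0.0014). Under NO3- the ratios were -0.37 and -0.34, and the differences between the nitrogen sources, 2.94 and 2.29, were called (edgeR adjusted p = 0.0343 and 0.0343). Under NO3- NIA2 averaged 1237 ± 207 normalized CPM in Or-1 and 1596 ± 1052 in Rak-2 (SD, n = 3 each). The groups overlapped there for both genes.

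FNR2, which supplies reduced ferredoxin to nitrite reductase in root plastids, had 197, 172 and 118 normalized CPM in Or-1, against 72.6, 65.1 and 49.8 in Rak-2 (log2 fold change 1.38 ± 0.29, edgeR adjusted p = 0.00569), and was higher under NO3- too (1.16). In all, 4 of the 16 genes tested for nitrate uptake and reduction were higher, where 6.55% of all genes were. The fourth was NRT2.2 at no more than 4.13 normalized CPM in any NH4+ library. NRT2.2 lost its call without Or-1 replicate 3 or Rak-2 replicate 1, 2 or 3 (log2 fold change 0.72 to 1.61), under upper-quartile or library size scaling, and in the fit of the 6 NH4+ libraries alone. NIA1, FNR2, G6PD3, NRT1.1, NRT2.1, NRT3.1 and NIR1 were picked by the study from these data. The nitrate transporter genes NRT1.1 and NRT2.1 and the nitrite reductase gene NIR1 were not called, with log2 fold changes of -0.25, -0.51 and 0.19 (edgeR adjusted p = 0.597, 0.216 and 0.731).

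**Figure D2:**
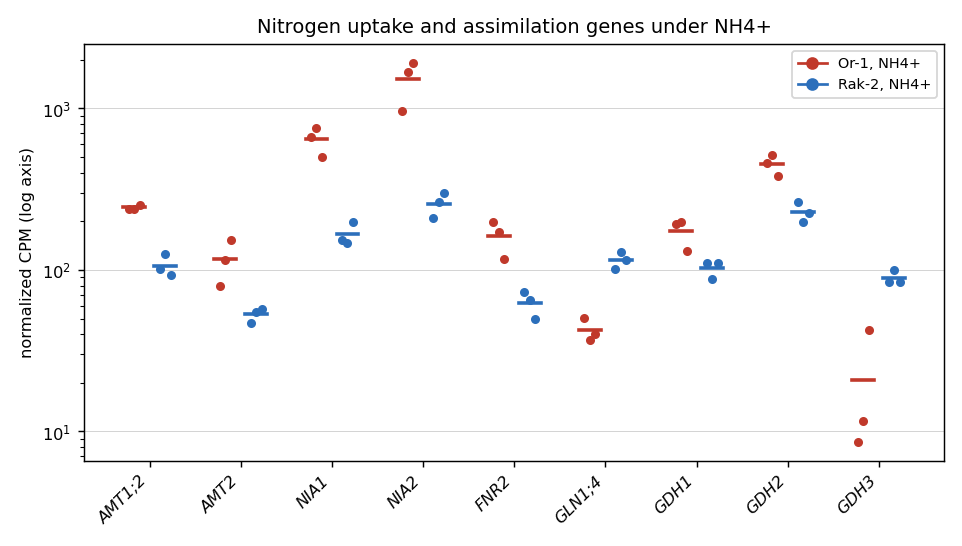
Normalized CPM on a log axis for 9 nitrogen genes in the 3 Or-1 NH4+ libraries (red, left) and the 3 Rak-2 NH4+ libraries (blue, right), with bars at the group means. Or-1 lies above Rak-2 for AMT1;2, AMT2, NIA1, NIA2, FNR2, GDH1 and GDH2 and below it for GLN1;4 and GDH3, with no overlap in any of the 9.

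None of 15 genes known from mutants or natural variation to alter ammonium sensitivity was called by edgeR. Of them, 6 had an unadjusted p under 0.05 by edgeR, as did 7048 of all 19327 genes, and DESeq2 called 1 higher. VTC1, which makes the GDP-mannose used for ascorbate and for protein glycosylation, had 209, 446 and 508 normalized CPM in Or-1, against 169, 190.4 and 207 in Rak-2 (log2 fold change 1.04 ± 0.35, edgeR adjusted p = 0.0516), higher in every Or-1 library and just short of the FDR threshold. It was called by DESeq2, with no filter on low counts, in the fit of the 6 NH4+ libraries alone (edgeR adjusted p = 0.0367) and without Or-1 replicate 1 (log2 fold change 1.34). SLAH3, an anion channel gene, had 106, 105 and 91.5 normalized CPM in Or-1, against 186, 185 and 164 in Rak-2 (log2 fold change -0.82 ± 0.16, edgeR adjusted p = 0.00338), without overlap but under the fold threshold.

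Genes of the low-oxygen response (hypoxia) and fermentation were higher in Or-1 where they were called. Of the 15 tested, 9 were called higher, where 6.55% of all genes were, and all 15 had a positive log2 fold change (median 1.60). SUS4 (sucrose synthase) had 778, 1867 and 2078 normalized CPM in Or-1, against 79.2, 155 and 119.9 in Rak-2, a log2 fold change of 3.74 ± 0.72 (edgeR adjusted p = 0.00335). PGB1, the phytoglobin gene that binds nitric oxide, had 135, 286 and 279 normalized CPM in Or-1, against 45.9, 78.7 and 46.1 in Rak-2 (log2 fold change 2.04 ± 0.44, edgeR adjusted p = 0.00684). The lowest Or-1 library lay above every Rak-2 library for both genes.

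Of the fermentation genes, PDC1 (pyruvate decarboxylase) had 637, 1631 and 1716 normalized CPM in Or-1, against 228, 507 and 315 in Rak-2 (log2 fold change 1.92 ± 0.56, edgeR adjusted p = 0.0285). LDH (lactate dehydrogenase) had 128, 158 and 160.5 normalized CPM in Or-1, against 63.4, 79.5 and 59.5 in Rak-2 (log2 fold change 1.14 ± 0.32, edgeR adjusted p = 0.0233). ALAAT1 (alanine aminotransferase) had 487, 760.0 and 685 normalized CPM in Or-1, against 199, 224 and 191 in Rak-2 (log2 fold change 1.65 ± 0.50, edgeR adjusted p = 0.0345). No Rak-2 library reached the lowest Or-1 library for these 3 genes. The oxygen sensing and regulatory genes PCO2 and HRA1 had log2 fold changes of 1.60 ± 0.50 and 1.41 ± 0.43 (edgeR adjusted p = 0.0411 and 0.0373). ADH1 (alcohol dehydrogenase) was not called, with 559, 1700.2 and 1402 normalized CPM in Or-1, against 289, 580.5 and 296 in Rak-2 (log2 fold change 1.65 ± 0.65, edgeR adjusted p = 0.0924) and overlapping groups, though it was called in the fit of the 6 NH4+ libraries alone. The first Or-1 library was the lowest of the 3 Or-1 libraries for all 15 genes.

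The count of 9 depends on single libraries. It was 2 without Rak-2 replicate 1, 3 without Rak-2 replicate 3, 3 without Or-1 replicate 2, 3 without Or-1 replicate 3 and 5 without Rak-2 replicate 2, and 11 when the 6 NH4+ libraries were fitted alone. Under NO3-, edgeR called none of these 15 genes between the ecotypes, with 0 at an unadjusted p under 0.05, 0 called by DESeq2 and a median log2 fold change of -0.27. One library decides that median. Summed over the list, the NO3- level was 13678, 13219 and 10563 normalized CPM in Or-1, against 25975, 7119 and 7532 in Rak-2, so the first Rak-2 NO3- library lay above all 3 Or-1 libraries and the other two below them. Without that library the median was 0.43, with 13 of the 15 positive and 1 called higher. SUS4 averaged 2591 ± 658 normalized CPM in Or-1 and 1023 ± 1120.2 in Rak-2 (SD, n = 3 each) under NO3-. The difference between the nitrogen sources was called for none of the 15 by edgeR, while 11 had an unadjusted p under 0.05 and DESeq2 called 6. Its median over the list was 1.94, but 0.94 without the first Rak-2 NO3- library, and 2 genes were called without the third. Single calls were lost for PDC1 without Or-1 replicate 2 or 3 or Rak-2 replicate 1 or 3 (log2 fold change 1.70 to 1.85), LDH without Or-1 replicate 2 or 3 or Rak-2 replicate 1 or 3 (log2 fold change 1.06 to 1.11), ALAAT1 without Or-1 replicate 2 or 3 or Rak-2 replicate 1, 2 or 3 (log2 fold change 1.52 to 1.74), HRA1 without Or-1 replicate 2 or 3 or Rak-2 replicate 1, 2 or 3 (log2 fold change 1.23 to 1.59), and PCO2 without Or-1 replicate 2 or 3 or Rak-2 replicate 1, 2 or 3 (log2 fold change 1.43 to 1.92), and for PCO2 also in the fit blocked on replicate number (edgeR adjusted p = 0.0508).

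**Figure D3:**
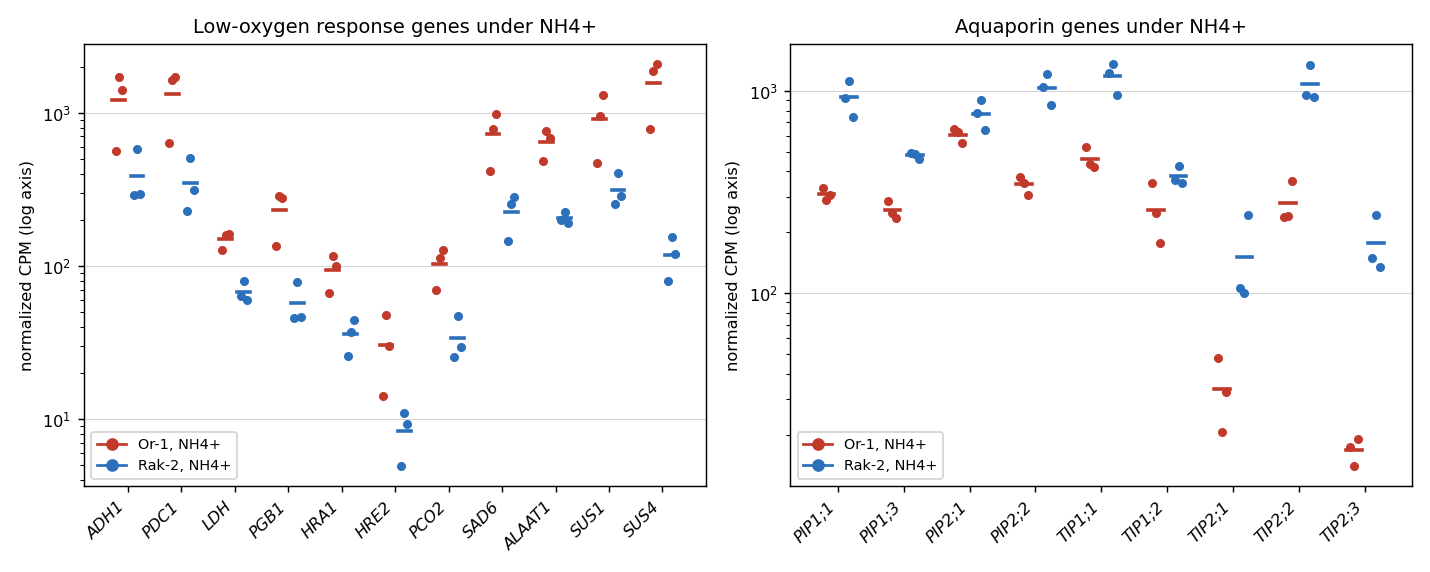
Normalized CPM on a log axis for 11 low-oxygen response genes (left panel) and 9 aquaporin genes (right panel) in the 3 Or-1 NH4+ libraries (red, left) and the 3 Rak-2 NH4+ libraries (blue, right), with bars at the group means. Or-1 means are above Rak-2 means for all 11 low-oxygen genes, with overlap for ADH1, and below them for all 9 aquaporin genes, with overlap for PIP2;1.

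Aquaporin genes were lower in Or-1 where edgeR called them in the fit of all 12 libraries. Of 19 tested, 6 were called lower, where 5.66% of all genes were, and 18 had a negative log2 fold change (median -0.82). The other member had 1.18, without overlap of the groups, and was not called. By DESeq2, in the fit of the 6 NH4+ libraries alone and with the replicate block in those 6, 1 member was called higher. The study reported water channel activity as enriched among genes that differed between these ecotypes under NH4+ in these libraries. It also picked TIP1;1, TIP1;2, PIP2;1 and PIP2;4 on the same libraries, so the list is no independent evidence. TIP2;3, a tonoplast aquaporin that also conducts ammonia, had 17.4, 13.9 and 19.0 normalized CPM in Or-1, against 149.8, 244 and 135 in Rak-2, a log2 fold change of -3.39 ± 0.26 (edgeR adjusted p = 5.79e-06). Of the same subfamily, TIP2;1 had 47.7, 20.5 and 32.5 normalized CPM in Or-1, against 106, 101 and 245 in Rak-2 (log2 fold change -2.17 ± 0.44, edgeR adjusted p = 0.00458). Its relative TIP2;2 had 239, 241 and 359 normalized CPM in Or-1, against 952, 1343 and 934 in Rak-2 (log2 fold change -1.95 ± 0.26, edgeR adjusted p = 0.000369). The groups were apart for all 3 genes.

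Of the abundant water channel genes, TIP1;1 had 530.3, 437 and 422 normalized CPM in Or-1, against 1229.9, 1357 and 954 in Rak-2 (log2 fold change -1.35 ± 0.18, edgeR adjusted p = 0.00038). PIP2;2 had 376, 352 and 308 normalized CPM in Or-1, against 1042, 1207 and 852 in Rak-2 (log2 fold change -1.58 ± 0.18, edgeR adjusted p = 9.36e-05). PIP1;1 had 330.4, 289 and 307 normalized CPM in Or-1, against 925, 1120.1 and 739 in Rak-2 (log2 fold change -1.59 ± 0.21, edgeR adjusted p = 0.000254). Reads of PIP2;2 may have been divided with its near-identical neighbour PIP2;3. PIP2;1 was not called (log2 fold change -0.34, edgeR adjusted p = 0.148), nor was TIP1;2 (-0.55, edgeR adjusted p = 0.1). Summed over the list, the level was 3428 to 3852 normalized CPM in Or-1, against 6727 to 8761 in Rak-2. Under NO3- the median log2 fold change of the list was 0.18, and -0.02 without the first Rak-2 NO3- library. The difference between the nitrogen sources was called and negative for 6 of the 19, where 0.15% of all genes were. That count was 2 without Or-1 NH4+ replicate 2 or 3 or Rak-2 NH4+ replicate 1 or 2. It was 3 without Rak-2 NH4+ replicate 3, Rak-2 NO3- replicate 1 or 2 or Or-1 NO3- replicate 2 or 3. Among the 6, TIP2;3 had -2.65 (edgeR adjusted p = 0.00804) and TIP2;1 had -2.99 (edgeR adjusted p = 0.0377).

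Genes for camalexin, the indole phytoalexin of Arabidopsis, were higher in Or-1 under NH4+ where they were called. Of 12 tested, 8 were called higher (6.55% of all genes were), with a median log2 fold change of 1.53. The study reported camalexin synthesis as enriched among genes that differed between these ecotypes under NH4+ in these same libraries. It also picked out NAC042, WRKY33, CYP71B15 and CYP71B2 on them, so the list is no independent evidence of its direction. CYP79B2, which turns tryptophan into indole-3-acetaldoxime, had 559, 514 and 785 normalized CPM in Or-1, against 199.7, 143 and 159 in Rak-2, a log2 fold change of 1.89 ± 0.31 (edgeR adjusted p = 0.00115). CYP71A13, which acts on that aldoxime, had 15.5, 8.25 and 37.4 normalized CPM in Or-1, against 3.26, 1.78 and 1.52 in Rak-2 (log2 fold change 3.22 ± 0.56, edgeR adjusted p = 0.00186), and a log2 fold change of 2.44 without Or-1 replicate 3. Its near-identical neighbour CYP71A12 had 396, 386 and 845 normalized CPM in Or-1, against 157, 158 and 196 in Rak-2 (log2 fold change 1.67 ± 0.42, edgeR adjusted p = 0.0147), and reads may have been divided between these copies. CYP71A12 was not called without Or-1 replicate 3 or Rak-2 replicate 1 or 2 (log2 fold change 1.2 to 1.64).

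CYP71B15, the enzyme of the last steps, was at the threshold, with 103, 104 and 159.9 normalized CPM in Or-1, against 75.6, 55.3 and 51.9 in Rak-2 (log2 fold change 1.00 ± 0.23, edgeR adjusted p = 0.00955), and was not called without Or-1 replicate 3 or Rak-2 replicate 2 or 3 (log2 fold change 0.76 to 0.96), nor under upper-quartile or library size scaling, nor in the fit of the 6 NH4+ libraries alone. Regulators of the pathway were called as well. NAC042 had 109, 111 and 140.0 normalized CPM in Or-1, against 25.6, 29.0 and 24.8 in Rak-2 (log2 fold change 2.18 ± 0.34, edgeR adjusted p = 0.000984). WRKY33 had 483, 593 and 549.7 normalized CPM in Or-1, against 126, 157 and 136 in Rak-2 (log2 fold change 1.96 ± 0.41, edgeR adjusted p = 0.0059). MYB51 had 160.1, 197 and 194 normalized CPM in Or-1, against 39.7, 44.5 and 39.3 in Rak-2 (log2 fold change 2.16 ± 0.35, edgeR adjusted p = 0.00115). Or-1 and Rak-2 did not overlap for these 3 regulators. MYB122 had a log2 fold change of 1.39 ± 0.29 (edgeR adjusted p = 0.00535). MYB34, another MYB regulator of indole glucosinolates, had 10.1, 6.61 and 13.4 normalized CPM in Or-1, against 23.1, 25.0 and 30.9 in Rak-2 (log2 fold change -1.39 ± 0.54, edgeR adjusted p = 0.0877), lower in every Or-1 library, and it was called lower by DESeq2, in the fit of the 6 NH4+ libraries alone and in the fit blocked on replicate number.

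Under NO3- the same list had a median of -0.96, with 6 members called lower in Or-1 and 1 higher, where 4.29% and 4.35% of all genes were. The higher one lost its call without the third Rak-2 NO3- library. The difference between the nitrogen sources was called for 8 of the 12, all with a larger ratio under NH4+, where 1.08% of all genes were. It was 7.84 for CYP71A13, 3.50 for NAC042, 3.25 for CYP79B2 and 2.27 for CYP71B15 (edgeR adjusted p = 0.00677, 0.00941, 0.00804 and 0.00986). WRKY33 was not among the 8 (1.83, edgeR adjusted p = 0.133).

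FOX1, the oxidase that leads from the same aldoxime to indole carbonyl nitriles, had 124, 140.3 and 319 normalized CPM in Or-1, against 17.4, 19.7 and 22.7 in Rak-2 (log2 fold change 3.29 ± 0.58, edgeR adjusted p = 0.00192). Under NO3- its ratio was -1.67, and the difference of 4.96 was called (edgeR adjusted p = 0.0144). NIT2, a nitrilase gene, had 99.5, 108 and 89.0 normalized CPM in Or-1, against 21.3, 16.1 and 21.3 in Rak-2 (log2 fold change 2.33 ± 0.18, edgeR adjusted p = 7.18e-06), while NIT1 in the same gene cluster had 59.3, 46.0 and 59.9 normalized CPM in Or-1, against 124, 116 and 132 in Rak-2 (log2 fold change -1.17 ± 0.33, edgeR adjusted p = 0.0243). NIT1 lost its call with any 1 library left out (log2 fold change -1.23 to -1.06), and reads of these similar copies may have been divided. Nitrilase activity was among the terms that the study reported as enriched between these ecotypes in the same libraries.

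**Figure D4:**
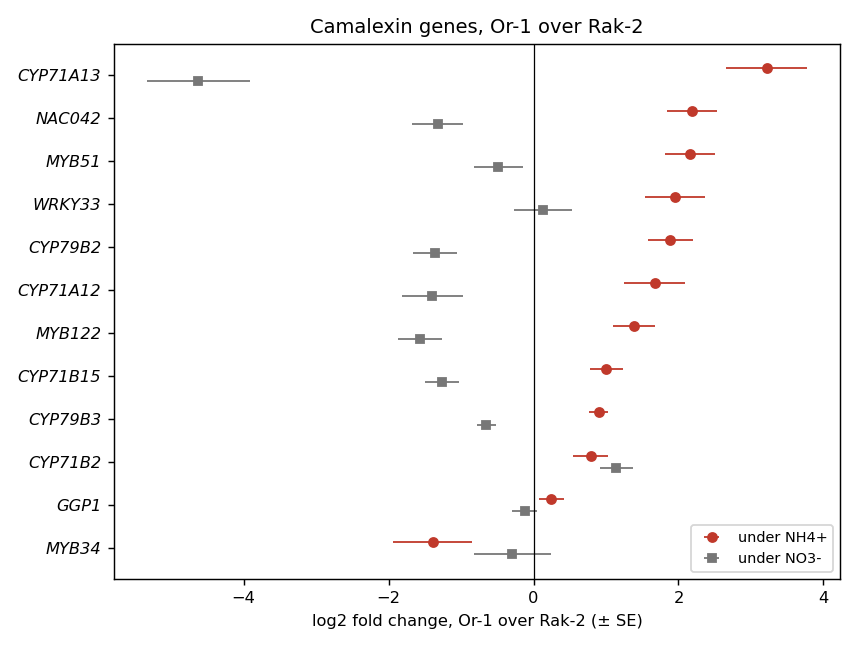
Log2 fold change of Or-1 over Rak-2 for the 12 camalexin genes tested, under NH4+ (red circles) and under NO3- (grey squares), with bars of 1 approximate SE. Under NH4+ 11 of the 12 lie right of 0, and 9 of those lie left of 0 under NO3-.

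Glucosinolates are the sulfur-rich defence compounds of this plant family. Of 17 synthesis genes tested, 1 was higher and 3 were lower in Or-1 (median -0.47), where 6.55% and 5.66% of all genes were. The lower count was 1 without Rak-2 replicate 1 or 2, and the higher one 0 without Or-1 replicate 2 or Rak-2 replicate 3. AOP3, a side-chain enzyme whose activity varies among accessions, had 4.96, 2.77 and 1.31 normalized CPM in Or-1, against 113, 81.0 and 55.4 in Rak-2, a log2 fold change of -4.78 ± 0.51 (edgeR adjusted p = 6.34e-05), and was lower under NO3- too (-3.08). SOT16, the sulfotransferase of the indole branch, had 412, 459 and 344 normalized CPM in Or-1, against 199, 178 and 153 in Rak-2 (log2 fold change 1.2 ± 0.29, edgeR adjusted p = 0.0129), and MAM1 of the methionine branch had 86.0, 84.0 and 65.4 normalized CPM in Or-1, against 206, 203 and 137 in Rak-2 (log2 fold change -1.21 ± 0.33, edgeR adjusted p = 0.0227). The groups did not overlap for these 3 genes. Calls were lost for SOT16 without Or-1 replicate 2 or Rak-2 replicate 3 (log2 fold change 1.1 to 1.11), and MAM1 without Or-1 replicate 2 or 3 or Rak-2 replicate 1 or 2 (log2 fold change -1.26 to -1.1).

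PEN2, the myrosinase that acts on indole glucosinolates at sites of attack, had 227, 267 and 233 normalized CPM in Or-1, against 114, 119.6 and 104 in Rak-2 (log2 fold change 1.1 ± 0.29, edgeR adjusted p = 0.0175), and was not called without Or-1 replicate 2 or Rak-2 replicate 1 or 3 (log2 fold change 1.03 to 1.12). It was 1 of 3 genes called higher among 13 for glucosinolate breakdown, where 6.55% of all genes were. That count was 1 without Or-1 replicate 2 or Rak-2 replicate 1 or 3. PEN3, the ABC transporter that exports the products, had the second highest mean normalized CPM of all genes called higher, with 1744, 1996 and 2133 normalized CPM in Or-1, against 691, 655 and 718 in Rak-2 (log2 fold change 1.51 ± 0.21, edgeR adjusted p = 0.000369). Under NO3- the PEN3 ratio was -0.11, and the difference of 1.62 was called (edgeR adjusted p = 0.0233).

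Genes of N-hydroxypipecolic acid, a mobile immune signal, went in opposite directions along the pathway. ALD1, which makes the precursor from lysine, had 81.9, 78.4 and 144 normalized CPM in Or-1, against 396, 493 and 623 in Rak-2, a log2 fold change of -2.31 ± 0.38 (edgeR adjusted p = 0.00124). SARD4, which reduces that precursor to pipecolic acid, had 99.1, 113 and 98.9 normalized CPM in Or-1, against 4.67, 3.92 and 4.07 in Rak-2, a log2 fold change of 4.62 ± 0.14 (edgeR adjusted p = 1.88e-08). Every Or-1 library was below every Rak-2 library for ALD1 and above for SARD4. Under NO3- ALD1 was higher in Or-1 (4.36 ± 1.90 against 0.883 ± 0.599 normalized CPM, SD, n = 3 each), and the difference of -4.57 was called (edgeR adjusted p = 0.00804), while SARD4 was higher in Or-1 there too (3.16).

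Among 18 genes for salicylic acid and N-hydroxypipecolic acid, 2 were higher and 3 lower, where 6.55% and 5.66% of all genes were. ALD1, PBS3 and PAD4 were picked by the study from these data. The lower count was 1 without Or-1 replicate 2 or Rak-2 replicate 3. Log2 fold changes in the list ran from -6.89 to 4.62, the lowest in a gene not described here. EDS5, the plastid exporter of a salicylic acid precursor, had 32.5, 47.6 and 75.1 normalized CPM in Or-1, against 15.1, 16.5 and 16.7 in Rak-2 (log2 fold change 1.69 ± 0.27, edgeR adjusted p = 0.00119). ICS1, the isochorismate synthase that makes the precursor, had 33.4, 46.0 and 67.0 normalized CPM in Or-1, against 85.8, 99.9 and 122 in Rak-2 (log2 fold change -1.07 ± 0.28, edgeR adjusted p = 0.0191). PBS3, which acts after EDS5, had 38.9, 50.7 and 145 normalized CPM in Or-1, against 136, 159 and 226 in Rak-2 (log2 fold change -1.15, edgeR adjusted p = 0.084). PBS3 was called lower by DESeq2, in the fit blocked on replicate number (edgeR adjusted p = 0.00966) and without Or-1 replicate 3 (log2 fold change -1.96), and ICS1 lost its call without Or-1 replicate 1 or 2 or Rak-2 replicate 2 or 3 (log2 fold change -1.07 to -0.86). Among 17 jasmonate genes, JAZ1 (a repressor of the pathway) was the one called, with 114, 151 and 168 normalized CPM in Or-1, against 52.6, 54.8 and 60.9 in Rak-2 (log2 fold change 1.36 ± 0.19, edgeR adjusted p = 0.000481), and there were 2 with DESeq2, the block or the 6 NH4+ libraries alone and 2 without Or-1 replicate 1 or Rak-2 replicate 3.

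Of 13 disease resistance receptor genes on the list, 3 were higher and 1 lower, where 6.55% and 5.66% of all genes were. RRS1 works as a pair with RPS4. RRS1 had 20.4, 24.8 and 28.8 normalized CPM in Or-1, against 7.93, 5.96 and 8.92 in Rak-2 (log2 fold change 1.70 ± 0.20, edgeR adjusted p = 0.000123), and RPS4 had 26.8, 30.1 and 35.0 normalized CPM in Or-1, against 13.8, 13.9 and 17.4 in Rak-2 (log2 fold change 1.03 ± 0.13, edgeR adjusted p = 0.000256). RLM3 had 6.61, 5.43 and 2.24 normalized CPM in Or-1, against 0, 0 and 0 in Rak-2, at least 30.3-fold higher, and RLM1 had 0, 0 and 0 normalized CPM in Or-1, against 2.71, 3.50 and 3.72 in Rak-2, at least 21.5-fold lower. RPS4 was not called without Or-1 replicate 3 or Rak-2 replicate 1 or 2 (log2 fold change 0.92 to 0.99), nor under upper-quartile or library size scaling.

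Of 9 genes for entry into phenylpropanoid metabolism, 3 were higher and 1 lower (median 0.80), where 6.55% and 5.66% of all genes were. The study reported phenylpropanoid metabolism as enriched among genes higher in Or-1 in these libraries, so the count is no independent evidence. PAL2, a phenylalanine ammonia-lyase gene whose product releases NH4+, had 613, 803 and 947 normalized CPM in Or-1, against 177, 177 and 219 in Rak-2 (log2 fold change 2.05 ± 0.26, edgeR adjusted p = 0.000209). C4H, the next enzyme, had 1475, 1984 and 2161 normalized CPM in Or-1, against 685, 712 and 611 in Rak-2 (log2 fold change 1.49 ± 0.24, edgeR adjusted p = 0.00121). PAL1 had 1198, 1332 and 1374 normalized CPM in Or-1, against 734, 786 and 713 in Rak-2 (log2 fold change 0.81 ± 0.15, edgeR adjusted p = 0.00262), under the fold threshold.

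PAL3 went the other way, with 0.535, 1.08 and 0.681 normalized CPM in Or-1, against 12.1, 8.16 and 7.74 in Rak-2 (log2 fold change -3.60 ± 0.33, edgeR adjusted p = 2.03e-05), and did so under NO3- too (-3.29). Of 10 monolignol genes, CSE (caffeoyl shikimate esterase) had 80.5, 89.1 and 85.6 normalized CPM in Or-1, against 263, 258 and 256 in Rak-2 (log2 fold change -1.61 ± 0.09, edgeR adjusted p = 8.58e-07) and was lower under NO3- as well (-1.92). CCR2 (cinnamoyl-CoA reductase) had 68.9, 94.1 and 115 normalized CPM in Or-1, against 32.2, 36.1 and 39.4 in Rak-2 (log2 fold change 1.37 ± 0.30, edgeR adjusted p = 0.00768). None of 12 flavonoid and 7 coumarin genes was called by edgeR or DESeq2. By edgeR 2 and 1 had an unadjusted p under 0.05, as did 7048 of all 19327 genes.

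The 5 called genes with the smallest FDR for the difference between nitrogen sources included genes of cell wall proteins and enzymes. LAC1, a laccase gene, had 29.8, 43.7 and 42.8 normalized CPM in Or-1, against 3.81, 3.66 and 4.41 in Rak-2, a log2 fold change of 3.29 ± 0.24 (edgeR adjusted p = 4.07e-06). DIR5, a dirigent protein gene, had 81.2, 185 and 200 normalized CPM in Or-1, against 23.1, 30.0 and 21.5 in Rak-2 (log2 fold change 2.64 ± 0.36, edgeR adjusted p = 0.000405). CSLE1, of the cellulose synthase-like family, had 172, 188 and 162 normalized CPM in Or-1, against 78.8, 81.0 and 75.2 in Rak-2 (log2 fold change 1.15 ± 0.10, edgeR adjusted p = 1.1e-05). Or-1 lay above Rak-2 in every library for all 3. Under NO3- the ratios were -0.16, -2.26 and -0.33, and the differences between nitrogen sources were 3.45, 4.91 and 1.48 (edgeR adjusted p = 0.00267, 0.00503 and 0.00248). AT3G59370, a calcium-binding protein gene, had the opposite pattern, with 4.33, 3.59 and 3.16 normalized CPM in Or-1, against 25.2, 25.5 and 15.3 in Rak-2 (log2 fold change -2.57 ± 0.25) and a difference of -3.06 (edgeR adjusted p = 0.00654).

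Class III peroxidases act on cell walls and reactive oxygen. Of 57 tested, 9 were higher and 5 lower, where 6.55% and 5.66% of all genes were (median 0.59, against 0.00 over all genes). The lower count was 3 without Or-1 replicate 2 or 3 or Rak-2 replicate 1 or 2. PER4 had 51.8, 43.0 and 54.0 normalized CPM in Or-1, against 5.72, 5.39 and 4.60 in Rak-2 (log2 fold change 3.24 ± 0.62, edgeR adjusted p = 0.00336). PRX52, which takes part in lignification, had 37.1, 30.4 and 38.8 normalized CPM in Or-1, against 7.73, 2.93 and 6.81 in Rak-2 (log2 fold change 2.60 ± 0.48, edgeR adjusted p = 0.00248). PRXR1 had the highest mean normalized CPM of all genes called lower, with 1959, 2158 and 2728 normalized CPM in Or-1, against 5369, 4567 and 5509.6 in Rak-2 (log2 fold change -1.17 ± 0.23, edgeR adjusted p = 0.00364). Prx37 had the highest of all called higher, with 2209.7, 2836 and 2565 normalized CPM in Or-1, against 1342, 1407 and 941 in Rak-2 (log2 fold change 1.04 ± 0.25, edgeR adjusted p = 0.0111), and was not called without Or-1 replicate 2 or Rak-2 replicate 3 (log2 fold change 0.88 to 0.96), nor under upper-quartile or library size scaling. DESeq2 and the fit of the 6 NH4+ libraries each called 16 of the 57 higher.

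Glutathione S-transferases conjugate glutathione to reactive compounds. Of 44 tested, 10 were higher and 3 lower, where 6.55% and 5.66% of all genes were, while the median was -0.00. The study reported glutathione metabolism as enriched among genes higher in Or-1 in these libraries, so the count is no independent evidence. GSTF6 had 1244, 1251 and 1389.8 normalized CPM in Or-1, against 426, 394 and 253 in Rak-2 (log2 fold change 1.86 ± 0.36, edgeR adjusted p = 0.00362), and its close copy GSTF7 had 995, 1143 and 1419 normalized CPM in Or-1, against 594, 593 and 432 in Rak-2 (log2 fold change 1.14 ± 0.27, edgeR adjusted p = 0.0121), so reads may have been divided between them. GSTF14 had 35.7, 43.4 and 38.9 normalized CPM in Or-1, against 243, 224 and 227 in Rak-2 (log2 fold change -2.55 ± 0.28, edgeR adjusted p = 8.28e-05) and was lower under NO3- too. Under NO3- 4 of the 44 were higher in Or-1 and 12 lower, where 4.35% and 4.29% of all genes were. The difference between nitrogen sources was called for 7, all with a larger ratio under NH4+, where 1.08% of all genes were. That difference was smallest in FDR of all called genes for GSTF3 (3.45, edgeR adjusted p = 0.00064). GSTF3 had 52.4, 54.6 and 50.4 normalized CPM in Or-1, against 29.8, 28.5 and 19.99 in Rak-2 (log2 fold change 1.01 ± 0.18, edgeR adjusted p = 0.00201). GSTF3 was at the fold threshold and not called without Or-1 replicate 2 or Rak-2 replicate 3 (log2 fold change 0.85 to 0.98), nor under upper-quartile or library size scaling, nor in the fit of the 6 NH4+ libraries alone, and GSTF7 was not called without Or-1 replicate 3 or Rak-2 replicate 3 (log2 fold change 0.99 to 1.00). Without Rak-2 replicate 3 the number called higher was 5, and 6 were called lower with the block on replicate number or by DESeq2, 5 in the fit of the 6 NH4+ libraries alone. The difference between nitrogen sources was called for 3 without any 1 of the Rak-2 NH4+ libraries, Or-1 NH4+ replicate 2 or Rak-2 NO3- replicate 1 or 2, and for 4 without Or-1 NO3- replicate 2. With the block it was called for 8 larger and 2 smaller ratios, and by DESeq2 for 9 and 3.

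Among genes of sucrose breakdown and hexose phosphorylation, 3 of 15 were higher in Or-1, where 6.55% of all genes were. SUS4 and SUS1 are shared with the low-oxygen list. CWINV1 and HXK2 were among the genes the study picked on these libraries, and it reported sucrose metabolism as enriched among genes higher in Or-1. The count was 1 without Rak-2 replicate 1. SUS1 had 470.3, 953 and 1311 normalized CPM in Or-1, against 253, 403 and 284 in Rak-2 (log2 fold change 1.54 ± 0.37, edgeR adjusted p = 0.0125). CWINV1, a cell wall invertase gene, had 314, 290.1 and 214 normalized CPM in Or-1, against 125, 112 and 114 in Rak-2 (log2 fold change 1.22 ± 0.33, edgeR adjusted p = 0.0213). HXK2 (hexokinase) was above Rak-2 in every Or-1 library, with 30.4, 53.2 and 44.4 normalized CPM in Or-1, against 17.5, 17.1 and 13.3 in Rak-2 (log2 fold change 1.42 ± 0.50, edgeR adjusted p = 0.0647), and was called higher by DESeq2, in the fit of the 6 NH4+ libraries alone and in the fit blocked on replicate number. Calls were lost for SUS1 without Rak-2 replicate 1 (log2 fold change 1.42), and CWINV1 without Or-1 replicate 1 or 2 or Rak-2 replicate 1, 2 or 3 (log2 fold change 1.11 to 1.28).

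Of 15 sugar transporter genes 3 were higher (1 without Or-1 replicate 2 or Rak-2 replicate 2), where 6.55% of all genes were. Among them was STP13, a hexose importer, with 38.9, 51.1 and 43.2 normalized CPM in Or-1, against 21.8, 17.2 and 23.2 in Rak-2 (log2 fold change 1.1 ± 0.20, edgeR adjusted p = 0.00233). PCK1, the phosphoenolpyruvate carboxykinase gene of gluconeogenesis, had 1514, 1576 and 1936 normalized CPM in Or-1, against 519, 461 and 713 in Rak-2 (log2 fold change 1.57 ± 0.25, edgeR adjusted p = 0.000933) and was among the 5 genes with the highest mean normalized CPM of those called higher. Of 16 genes for trehalose-6-phosphate, a sugar signal, 3 were higher, where 6.55% of all genes were. TPS8, TPS10, TPPD and TPPG are study picks from these data. TPS8 (of the synthase family) had 31.0, 43.0 and 33.4 normalized CPM in Or-1, against 13.2, 15.2 and 14.9 in Rak-2 (log2 fold change 1.31 ± 0.21, edgeR adjusted p = 0.00114). TPPJ (phosphatase) had 102, 97.7 and 88.2 normalized CPM in Or-1, against 37.6, 41.6 and 33.4 in Rak-2 (log2 fold change 1.35 ± 0.32, edgeR adjusted p = 0.0114). STP13 was not called without Or-1 replicate 2 or Rak-2 replicate 2 (log2 fold change 0.99 to 1.00).

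Cytokinin genes were lower in Or-1 where they were called, 5 of 28 (median -0.62), where 5.66% of all genes were lower. The count was 2 without Rak-2 replicate 2 and 3 without Or-1 replicate 1 or 2 or Rak-2 replicate 1. Without Or-1 replicate 1, 1 member was called higher. The study had picked IPT3, IPT5, IPT7, CYP735A1, CYP735A2, CKX1, CKX5 and CKX6 from these libraries, so the count is no independent evidence. IPT3, which starts cytokinin synthesis and is known to respond to nitrate, had 3.06, 1.74 and 2.43 normalized CPM in Or-1, against 5.52, 5.49 and 10.3 in Rak-2 (log2 fold change -1.55 ± 0.32, edgeR adjusted p = 0.00503). CYP735A1, which makes the trans-zeatin form, had 1.31, 1.23 and 1.12 normalized CPM in Or-1, against 2.71, 3.14 and 1.96 in Rak-2 (log2 fold change -1.09 ± 0.26, edgeR adjusted p = 0.0115). ABCG14, the exporter that loads cytokinins for the shoot, had 42.3, 33.5 and 31.3 normalized CPM in Or-1, against 133, 125 and 123 in Rak-2 (log2 fold change -1.83 ± 0.18, edgeR adjusted p = 3.77e-05), and was lower under NO3- too (-1.34). IPT5, IPT7 and CYP735A2 had log2 fold changes of -0.70, -0.77 and -1.05 and were not called (edgeR adjusted p = 0.063, 0.153 and 0.0805). CYP735A1 was not called without Rak-2 replicate 2 (log2 fold change -0.91), and CYP735A2 was called by DESeq2 and without Rak-2 replicate 3 or Or-1 replicate 3 (log2 fold change -1.30 and -1.45).

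Of 23 genes for iron uptake and its control, 4 were lower (median -0.31), 3 of them nicotianamine synthase genes that make a metal chelator, where 5.66% of all genes were lower. The count was 1 without Or-1 replicate 1 or 2 and 2 without Or-1 replicate 3 or Rak-2 replicate 1 or 2. With the replicate block and by DESeq2, 1 member was called higher. Under NO3- 6 of the 23 were called lower (median -0.63), where 4.29% of all genes were. NAS4 had 3.70, 4.82 and 3.40 normalized CPM in Or-1, against 9.49, 8.63 and 9.01 in Rak-2 (log2 fold change -1.19 ± 0.18, edgeR adjusted p = 0.000682). NAS2 had 5.74, 9.54 and 13.6 normalized CPM in Or-1, against 36.1, 35.9 and 34.0 in Rak-2 (log2 fold change -1.88 ± 0.48, edgeR adjusted p = 0.0166). The groups were apart for both genes. IRT1, the main iron importer, was not called (log2 fold change -0.46, edgeR adjusted p = 0.495). SULTR1;2, a root sulfate importer, had 58.5, 72.5 and 57.3 normalized CPM in Or-1, against 124, 147 and 120.0 in Rak-2 (log2 fold change -1.05 ± 0.21, edgeR adjusted p = 0.00446). PAP17, an acid phosphatase of phosphate starvation, had 6.66, 6.36 and 8.46 normalized CPM in Or-1, against 20.7, 23.8 and 19.9 in Rak-2 (log2 fold change -1.58 ± 0.24, edgeR adjusted p = 0.000839). Both were lower under NO3- too. Calls were lost for NAS2 without Or-1 replicate 1 or 2 (log2 fold change -1.87 to -1.61), and SULTR1;2 without Or-1 replicate 3 or Rak-2 replicate 2 (log2 fold change -0.99 to -0.94).

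Of 11 genes of the response to low pH and aluminium, 2 were higher, where 6.55% of all genes were. Neither was ALMT1, the member named by the study. PGIP1, an inhibitor of pectin-degrading enzymes, had 735, 689 and 490.0 normalized CPM in Or-1, against 213, 176 and 188 in Rak-2 (log2 fold change 1.73 ± 0.54, edgeR adjusted p = 0.041). MATE, a citrate exporter, had 100.1, 89.5 and 66.9 normalized CPM in Or-1, against 41.9, 34.3 and 32.8 in Rak-2 (log2 fold change 1.23 ± 0.33, edgeR adjusted p = 0.0204). The groups did not overlap for either. Calls were lost for PGIP1 with any 1 library left out (log2 fold change 1.62 to 1.89), and MATE without Or-1 replicate 1 or 2 or Rak-2 replicate 2 or 3 (log2 fold change 1.11 to 1.21). In the abscisic acid list of 12, LTI30 (a dehydrin) was higher, with 49.4, 74.5 and 78.1 normalized CPM in Or-1, against 26.6, 25.3 and 22.0 in Rak-2 (log2 fold change 1.45 ± 0.22, edgeR adjusted p = 0.000675), and 2 were lower, RAB18 and NCED3, both at or under 4.95 normalized CPM in every NH4+ library. NCED3 was not called without Or-1 replicate 1 or 2 or Rak-2 replicate 2 or 3 (log2 fold change -1.28 to -1.1).

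Other genes with a high mean normalized CPM were called in either direction. AT1G26240, of a proline-rich extensin-like family of wall proteins, had 1242, 1657 and 2708 normalized CPM in Or-1, against 519, 639 and 594 in Rak-2 (log2 fold change 1.68 ± 0.37, edgeR adjusted p = 0.00701). TCTP, a growth-promoting protein gene, had 697, 749 and 889 normalized CPM in Or-1, against 1320.3, 1593 and 2079.9 in Rak-2 (log2 fold change -1.1 ± 0.27, edgeR adjusted p = 0.0138). AT4G15390, of the HXXXD-type acyltransferase family, had 973, 709 and 447 normalized CPM in Or-1, against 1965, 1882 and 1144 in Rak-2 (log2 fold change -1.23 ± 0.34, edgeR adjusted p = 0.0242). In all 3 the groups were apart. Calls were lost for TCTP without Or-1 replicate 2 or Rak-2 replicate 3 (log2 fold change -1.07 to -0.91), and AT4G15390 without Or-1 replicate 2 or 3 or Rak-2 replicate 1 or 2 (log2 fold change -1.23 to -0.98).

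Among root cell markers, MYB36, which drives endodermal differentiation, had 7.49, 7.33 and 7.44 normalized CPM in Or-1, against 15.5, 18.8 and 17.8 in Rak-2 (log2 fold change -1.23 ± 0.17, edgeR adjusted p = 0.000482), and was lower under NO3- as well. Among 7 morning genes of the circadian clock, PRR9 had 3.11, 6.15 and 5.88 normalized CPM in Or-1, against 1.25, 1.67 and 1.67 in Rak-2 (log2 fold change 1.72 ± 0.43, edgeR adjusted p = 0.0144). CCA1 had 5.49, 21.1 and 57.1 normalized CPM in Or-1, against 3.41, 5.18 and 6.76 in Rak-2 (log2 fold change 2.44 ± 0.67, edgeR adjusted p = 0.0225), with overlapping groups for CCA1. None of 8 evening genes was called by edgeR or DESeq2. By edgeR 4 had an unadjusted p under 0.05, as did 7048 of all 19327 genes. Whether the time of harvest differed between the ecotypes is not given in the sources used here. Calls were lost for PRR9 without Or-1 replicate 2 or Rak-2 replicate 1 (log2 fold change 1.55 to 1.60), and CCA1 without Or-1 replicate 3 or Rak-2 replicate 1 or 2 (log2 fold change 1.38 to 2.47).

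**Figure D5:**
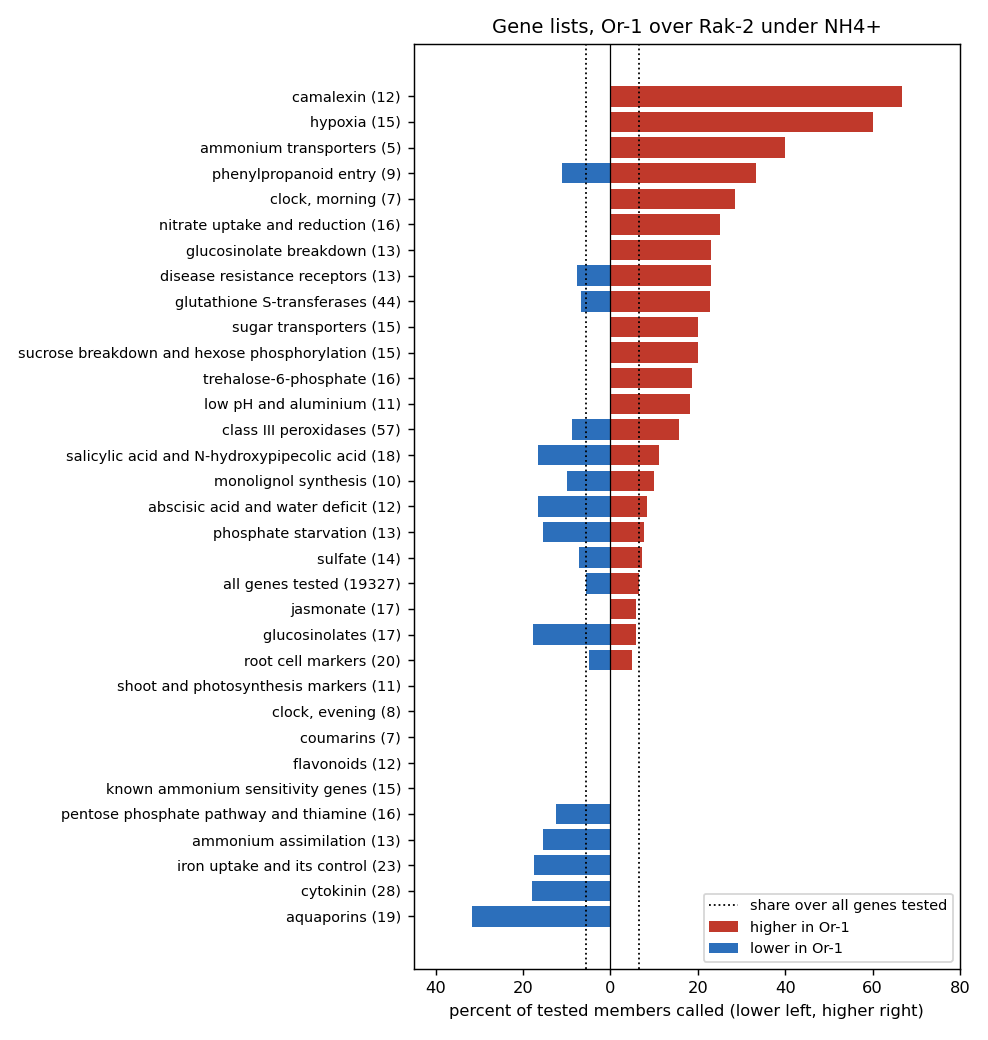
Percent of the tested members of each list of 5 or more genes (number in brackets) that were called higher in Or-1 (red, right of 0) or lower (blue, left of 0) under NH4+, with dotted lines at the 6.55% and 5.66% over all genes tested. The camalexin list (8 of 12) and the hypoxia list (9 of 15) reach farthest to the right, and the aquaporin list (6 of 19) farthest to the left.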

How the data were processed

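Root RNA of 12 libraries was made into libraries with a NEBNext Ultra kit and sequenced on an Illumina HiSeq instrument. The deposited table holds whole-number read counts per gene for each library. The aligner, the counting program, its use of strand, the build and the annotation are not given in the sources used here, so overlapping and antisense genes cannot be told apart. The authors' tables of their own comparisons, with fold changes and FDR, were not used.

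Counts were fitted with edgeR 4.0.16 in R 4.3.3 (filterByExpr with a minimum count of 10, TMM factors, quasi-likelihood test with Benjamini-Hochberg adjustment), with 1 coefficient per group over all 12 libraries. The filter left 19327 of 26568 genes. Errors of fold changes are approximate SE, taken as the absolute log2 fold change divided by the square root of its quasi-likelihood F statistic. The script was tested on simulated data. The deposited identifiers matched TAIR10.1 for 25670 genes, and 694 were assembled by the authors. Library totals of 16005610 to 22388738 and 3 libraries per group set the precision.

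Members and lists were chosen with earlier results of these data known. Named genes were drawn from the 10 called genes with the largest change per direction (at least 5 normalized CPM in the higher ecotype, no overlap), up to 5 called members per list, genes the study names, the 5 most abundant called genes per direction, and 5 with the smallest FDR for the difference between nitrogen sources. Other list members were named after their values were seen. Replicate numbers came from the labels. Same-numbered libraries of the ecotypes deviated together under NH4+ (r = 0.216, 0.285 and 0.336), so a fit blocked on the number is given where it changes the call of a named gene or moves a count by over 1.5 times. Under NO3- the correlations were 0.495, 0.047 and 0.541. Alternatives were DESeq2 1.42.0, upper-quartile or library size scaling, other filters and thresholds, glmTreat, the NH4+ libraries alone, the block, and each library left out.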

Additional observations from a re-analysis of the deposited data

Results flagged for a closer look

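The difference of the Or-1 over Rak-2 contrast between NH4+ and NO3- was called by edgeR's quasi-likelihood test for 237 genes. The named genes among them are given here with that difference on the log2 scale, positive where Or-1 over Rak-2 was larger under NH4+. Their edgeR adjusted p ran from 0.00064 (GSTF3) to 0.0481 (TIP1;1). In camalexin and indole metabolism the difference was 7.84 for CYP71A13, 4.96 for FOX1, 3.50 for NAC042, 3.25 for CYP79B2, 3.07 for CYP71A12, 2.95 for MYB122, 2.64 for MYB51, 2.27 for CYP71B15 and 1.62 for PEN3. For the glutathione S-transferase genes it was 3.45 for GSTF3, 2.74 for GSTF6 and 2.69 for GSTF7. In phenylpropanoid and wall metabolism it was 2.26 for PAL2, 1.04 for PAL1, 3.45 for LAC1, 4.91 for DIR5, 4.00 for PER4 and 1.48 for CSLE1. In nitrogen and sugar metabolism it was 2.94 for NIA2, 2.29 for NIA1, 1.27 for GDH2 and 1.46 for STP13. It was 1.46 for SARD4, 2.89 for WRKY55, 4.81 for DTX1 and 1.30 for AT5G52450.

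Negative differences were -4.57 for ALD1, -3.06 for AT3G59370, -2.99 for TIP2;1, -2.65 for TIP2;3, -1.19 for TIP1;1 and -1.13 for PIP1;3. Of the 4 groups, the Rak-2 NO3- libraries were the most variable (coefficient of variation between libraries 0.343), and the others had values of 0.158 to 0.241. The part of that group in these calls was not tested. Marker genes of shoots were lower in Or-1 under NH4+ and mostly higher under NO3-, and their part was not tested either. The named differences were not followed gene by gene with a library left out.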

How the results depend on the processing

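Counts of genes called between Or-1 and Rak-2 under NH4+ stayed within 1.5 times of 2359 in every fit but those that changed the fold threshold. FDR alone gave 4390 (2327 higher, 2063 lower) and a test against a log2 fold change of 1 (glmTreat) gave 997 (520 and 477). Under NO3- these settings gave 2678 and 790. For the difference between nitrogen sources, DESeq2 called 712 genes and glmTreat 6, and leaving out 1 library gave 69 to 613. Upper-quartile and library size scaling gave 195 (154 larger and 41 smaller under NH4+) and 215 (162 and 53). The median of that difference over all genes was -0.12 and -0.14 with them, against -0.01 with TMM factors. The fit of only the libraries compared cannot be made for it, since it needs all 12. With at most 0 counts as the detection limit, 81 genes called higher and 107 called lower were at the limit, and with at most 10 counts 274 and 304.

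In the fit blocked on replicate number, 2711 genes were called under NH4+, with 2332 of the 2359 among them, and 398 for the difference between nitrogen sources. A block with only the 6 NH4+ libraries, chosen after the data were seen, gave 2828. Of 113 named genes called, 60 lost the call in at least 1 alternative and 34 in at least 1 fit without a library, 1 lost it with the block (PCO2), and 13 uncalled named genes gained a call in at least 1. The direction of AMT1;1, near 0, turned with upper-quartile scaling (log2 fold change -0.00061). Depth of 18302973 counts or more put the floor of 3 counts at 0.157 normalized CPM or less under NH4+.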

Other observations

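Families grouped by words of their annotation, chosen after the data were seen, held further ecotype differences under NH4+, beside 12.2% called over all genes. Of 58 WRKY transcription factor genes, 9 (15.5%) were called, all higher in Or-1, where 6.55% of all genes were. Of the 9, 1 was also called higher under NO3-, beside 43.8% of all genes called higher under NH4+. The difference between nitrogen sources was called for 2 of the 9, and for 146 of all 1266 genes called higher. WRKY55 had 26.9, 29.4 and 46.7 normalized CPM in Or-1, against 4.37, 5.55 and 5.54 in Rak-2 (log2 fold change 2.73 ± 0.33, edgeR adjusted p = 0.000155), and WRKY53, a regulator of senescence and defence, had 55.9, 66.6 and 54.4 normalized CPM in Or-1, against 19.1, 22.3 and 17.2 in Rak-2 (log2 fold change 1.59 ± 0.24, edgeR adjusted p = 0.000737). WRKY41 had 17.2, 19.6 and 23.4 normalized CPM in Or-1, against 1.91, 4.13 and 3.63 in Rak-2 and was the one called under NO3- too (2.76 on the log2 scale). WRKY55 and WRKY41 are study picks from these data. Of 43 genes of MATE efflux carriers, which export organic acids and specialised metabolites, 18 (41.9%) were called, 14 higher and 4 lower, with EDS5 and MATE among the 14. DTX1 had 20.2, 22.5 and 18.2 normalized CPM in Or-1, against 1.86, 1.62 and 1.86 in Rak-2 (log2 fold change 3.51 ± 0.65, edgeR adjusted p = 0.00284), and AT5G52450 had 40.9, 45.8 and 48.0 normalized CPM in Or-1, against 18.7, 20.1 and 18.5 in Rak-2 (log2 fold change 1.24 ± 0.12, edgeR adjusted p = 2.53e-05). AT5G38030 went the other way, with 0.778, 0.769 and 2.77 normalized CPM in Or-1, against 29.1, 24.5 and 41.4 in Rak-2 (log2 fold change -4.45 ± 0.71, edgeR adjusted p = 0.00108), with a log2 fold change of -5.34 without Or-1 replicate 3.

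Of 98 genes annotated as NBS-LRR disease resistance proteins, 37 (37.8%) were called, 25 higher and 12 lower, and 26 of them the same way under NO3-. Over all genes, 43.8% of those called higher and 53.9% of those called lower were called the same way there. Of 23 terpene synthase genes 9 (39.1%) were called, 2 higher and 7 lower, and 7 the same way under NO3-. AT1G48800, one of the terpene synthase genes, had 0.243, 0 and 0.146 normalized CPM in Or-1, against 14.6, 14.6 and 9.26 in Rak-2 (log2 fold change -6.54 ± 0.86, edgeR adjusted p = 0.000281), with a log2 fold change of -7.31 without Or-1 replicate 1. Of 299 ribosomal protein genes 14 (4.68%) were called, 3 higher and 11 lower, 10 of them the same way under NO3-. Of 444 tested genes assembled anew by the authors, 161 (36.3%) were called, 86 higher and 75 lower. Among these, 50 of the higher and 47 of the lower were at the detection limit in the other ecotype under NH4+. Because such genes were assembled from the reads, a gene read in only 1 ecotype can enter the list through that ecotype. Their share called therefore cannot be compared with the share over all genes. Close copies within these families may share reads.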
